A study of Mus musculus with 8 samples.

Results

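Isolated H3K4me3 regions of the mouse testis are the regions that had no other such region close by on the chromosome in wild-type mice. Trimethylation of lysine 4 of histone H3 (H3K4me3) was profiled by ChIP-seq in testis tissue from adult C57BL/6 mice that were null for H3f3b (KO; libraries KO 67 and KO 73) or carried H3f3b WT/WT (WT; libraries WT 66 and WT 74). The 4 lists of enriched regions were merged, and a merged region was kept if it was covered in both WT libraries and lay at least 250 kb, edge to edge, from the nearest other both-WT region on each side. Chromosomes 1 to 19 were searched, except chromosome 14 and the stretch of chromosome 5 from 9.5 to 16 Mb. This left 658 isolated regions out of 11636 both-WT autosomal regions and out of 16519 merged regions of all kinds. The other 10978 both-WT autosomal regions are the comparison. The isolated regions were thus chosen by the region calls of the WT libraries and by their positions, so the WT values below describe them and test nothing, whereas coverage in KO entered only through the merging of the lists. The labels give no age beyond adult, do not say how the null allele was made, and do not say that each library number is a separate animal, so that p-values reflect how these libraries varied, a variation that may be technical. Whether the stretches around these regions are poor in genes was not examined, because gene positions in mm9, the build of the lists, were not used here. For the same reason no gene name is given to any region, no sequence is shown, and the H3f3b locus itself was not examined as a check of the genotypes.

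H3K4me3 marks the promoters of active genes, most densely where the DNA is rich in CpG, and enzymes of the SET1 and MLL families place it there. In the testis a further writer, PRDM9, places the same mark in spermatocytes at sites of meiotic recombination, which need not lie at promoters. H3f3b encodes H3.3, the variant of histone H3 that enters chromatin outside DNA replication, and its paralog H3f3a encodes the same protein. In a bulk testis sample, fewer cells that carry a marked region and less mark per cell cannot be told apart.

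The lists held 10502 regions in KO 67 and 12497 in KO 73, against 14078 in WT 66 and 14551 in WT 74, a mean of 11499.5 ± 1411 in KO and 14314.5 ± 334 in WT (SD, n = 2 each; 2-sided exact permutation p = 0.33, the smallest possible here). The absolute depth is unknown. The authors' scores rose in steps of 0.325 in KO 67, 1.45 in KO 73, 0.874 in WT 66 and 1.39 in WT 74, and the weakest region of each list stood at 62, 14, 23 and 15 steps in that order. If 1 step is 1 read on a common scale, which is not stated, KO 67 was the deepest library although its list was the shortest.

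Isolated regions were weaker and shorter in WT than the other both-WT regions. Their median score lay at the 45.4th percentile in WT 66 and at the 47.6th in WT 74, against 57.03 and 58.3 for the other regions. Their median covered length was 1344.5 bp in WT 66 and 1278.5 bp in WT 74, against 1526 and 1437.5 bp for the others. Ranked by the mean of the 2 WT percentiles, 31.5% of the isolated regions fell in the lowest quintile of both-WT regions and 12.0% in the highest, against 19.3% and 20.5% of the others. The isolated set also held strong, broad regions, and 26 of its members covered at least 3000 bp in both WT libraries.

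The nearer both-WT neighbour of an isolated region lay a median of 410 kb away, against 28.5 kb for the other regions, and 10 isolated regions had a chromosome end on 1 side. Distances of at least 500 kb were kept by 242 regions, of at least 1 Mb by 65 and of at least 2 Mb by 12. At the threshold itself, the pair chr13:31649804-31652078 and chr13:31902113-31903982 lay 250.034 kb apart and was just inside, as was chr15:64142627-64145715 at 250.488 kb. Just outside were chr3:104023010-104025328 at 249.665 kb, chr2:52279623-52281312 at 249.637 kb and chr10:69065649-69066167 at 249.631 kb. All of these were covered in both KO libraries except the last, which was absent from both.

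The surroundings were not empty in every list. No region of any of the 4 libraries lay within 250 kb of 413 isolated regions (62.8%), and the remaining 245 had from 1 to 6 neighbours that were not both-WT regions. Counted once for each isolated region, these neighbours numbered 362. Of them, 273 had been called in a single library, 209 of those in a WT library and 64 in a KO library. Only 2 neighbours were found in both KO libraries and neither WT library. They are named here although they were picked after their values were seen. The first, chr1:62841955-62842728, measured 632 bp in KO 67 and 633 bp in KO 73. It lay 0.292 kb beyond the edge of the isolated region chr1:62840200-62841662, which itself measured 628 bp in KO 67 and 0 bp in KO 73, against 1463 bp in WT 66 and 804 bp in WT 74. The second, chr16:45843932-45844576, covered the narrowest width of any list in KO 67 and 640 bp in KO 73, and lay 100.5 kb from chr16:45742129-45743430, which was covered in all 4 libraries.

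Isolated regions were more often absent from the KO lists than other both-WT regions, and part of that gap went with their lower WT score. Of the 658 isolated regions, 122 were absent from both KO libraries, 18.5% (15.6 to 21.7, 95% exact binomial interval), and 434 were found in both (65.96%). Among the other both-WT regions, 10.4% were absent from both KO libraries (9.87 to 11.0), and among all 11636 regions together 10.9% were. Other both-WT regions of like score gave 15.1%, or 99.3 regions in place of the 122 observed, a difference of 3.45 percentage points. Like score means that the other regions were averaged over 20 bins of WT score rank with the isolated regions' numbers as weights. The intervals cover counting error only and take regions as independent, which neighbours need not be, and no test was made over regions. The difference ran from 2.96 points without chromosome 8 to 3.98 points without chromosome 10. It was 6.21 points without KO 73, where absence is judged on KO 67 alone, and 0.287 points with isolation at 100 kb.

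The size of the absent share depended on which lists were used. It was 20.5% without KO 67, 32.1% without KO 73, 32.0% without WT 66 and 28.5% without WT 74, where 1 library in place of 2 decides presence in a genotype. With all lists cut to an equal length by score, 8.89% of the isolated regions were absent from both KO libraries, against 6.798% of regions of like score.

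**Figure D1:**
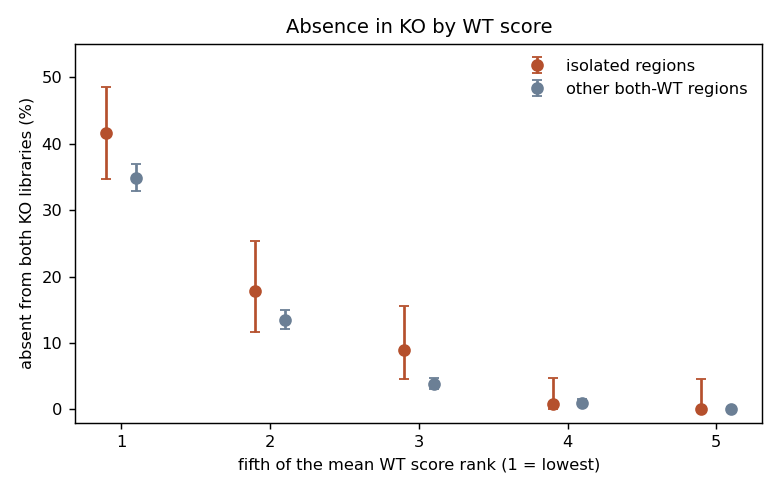
Share of regions absent from both KO libraries (vertical axis, %) in each quintile of the mean WT score rank (horizontal axis, lowest quintile at left), for isolated regions and for other both-WT regions. Points are shares and bars 95% exact binomial intervals. Absence falls steeply with WT score in both sets, from 41.5% of isolated and 34.8% of other regions in the lowest quintile to 0% and 0.133% in the highest.

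Within quintiles of the WT score, the plot of absence by score shows the isolated regions above the others in the lower 3 quintiles, with intervals that overlapped in each. In the lowest quintile, 86 of 207 isolated regions were absent from both KO libraries (41.5%, interval 34.8 to 48.6), against 34.8% of the others (32.8 to 36.9). The next quintile gave 17.8% of 135 isolated regions (11.7 to 25.3), against 13.5% of the others (12.1 to 15.0). In the middle quintile, 11 of 122 isolated regions were absent, 9.02% (4.59 to 15.6), against 3.90% of the others (3.13 to 4.79). In the fourth, 1 of 115 isolated regions was absent, 0.870%, against 1.04% of the others. None of the 79 isolated regions of the highest quintile was absent from both KO libraries (0%, interval up to 4.56%), against 3 of 2248 other regions.

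Short isolated regions were absent most often. Isolated regions whose smaller WT covered length was below 1000 bp were absent from both KO libraries in 95 of 282 cases (33.7%), against 25.5% of the others. Between 1000 and 2000 bp the share was 8.19% of 281 isolated regions and 4.33% of the others. Of the 95 isolated regions of at least 2000 bp, 4 were absent, and of the 2427 others 67 were.

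The absent isolated regions with the largest WT coverage included broad ones with WT scores above the middle of the lists. The region chr16:12758242-12761780 covered 0 bp in KO 67 and KO 73, against 3505 bp in WT 66 and 3414 bp in WT 74. Its scores lay at the 74.2nd and 83.6th percentiles of the WT lists. It was the 1 absent isolated region of the fourth score quintile, and its both-WT neighbours were 848 and 314 kb away. The region chr9:6265087-6267695 likewise had no KO coverage, against 2331 bp in WT 66 and 2483 bp in WT 74, with no region of any library within 250 kb. On chromosome 5, chr5:43354241-43356630 had no KO coverage, against 2283 bp in WT 66 and 2199 bp in WT 74. Its nearer neighbour, 267 kb to the right, was the isolated region chr5:43623309-43627956, the third of all isolated regions by WT score. That region was kept, at 4069 bp in KO 67 and 3515 bp in KO 73, against 4648 bp in WT 66 and 4455 bp in WT 74. Adjacent isolated regions could therefore differ fully in their KO coverage. The fourth and last of the 5, chr1:13059051-13061268 and chr5:127185225-127187486, had no KO coverage either, against 2206 bp (WT 66) and 2126 bp (WT 74) for the first and 2262 bp (WT 66) and 1743 bp (WT 74) for the second. A region stands in this list because it was absent in KO, so its values are a description. All of the 5 except the last covered at least 2000 bp in both WT libraries.

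Most absent isolated regions were short and weak. Their median WT coverage was 814.5 bp in WT 66 and 793.5 bp in WT 74, at the 20.1st and 23.1st percentiles of the lists. Those found in both KO libraries had medians of 1554.5 and 1428.5 bp and lay at the 60.04th and 61.04th percentiles.

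A further 102 isolated regions were found in 1 KO library, 15.5% (12.8 to 18.5), against 10.0% of the other both-WT regions, 13.3% at like score and 10.3% of all both-WT regions. KO 73 alone held 89 of them, 13.5% of the isolated regions, against 8.47% of all both-WT regions and 10.8% at like score. KO 67 alone held 13, or 1.98%, against 1.87% of all both-WT regions and 2.47% at like score. In total 211 isolated regions were missing from KO 67 (32.1%) and 135 from KO 73 (20.5%), against 18.6% and 12.3% of the other regions. At like score the shares were 25.9% for KO 67 and 17.6% for KO 73, so isolated regions exceeded regions of like score by 6.15 points in KO 67 and by 2.95 points in KO 73. The 89 held by KO 73 alone were weak there, with a median length of 721 bp at the 17.6th percentile of the list. The 13 held by KO 67 alone had a median length equal to the narrowest width in any list, at its 6.26th percentile.

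Among the isolated regions found in 1 KO library were 4 that covered at least 3000 bp in both WT libraries, and all 4 were missing from KO 67. The region chr3:6135282-6139302 measured 0 bp in KO 67 and 1629 bp in KO 73, against 3970 bp in WT 66 and 3983 bp in WT 74. On chromosome 8, chr8:106323505-106327634 measured 0 bp in KO 67 and 1678 bp in KO 73, against 4130 bp in WT 66 and 3807 bp in WT 74. The region chr8:103159969-103164469, with 3206 kb to its left neighbour, measured 0 bp in KO 67 and 1713 bp in KO 73, against 4466 bp in WT 66 and 3765 bp in WT 74. These 3 lay at about the 84.6th percentile or higher of both WT lists, and no other isolated region of the highest score quintile was missing from a KO library. The fourth, chr15:43894491-43897756, measured 0 bp in KO 67 and 662 bp in KO 73, against 3013 bp in WT 66 and 3042 bp in WT 74. The next by WT coverage, chr10:71440463-71443511, measured 0 bp in KO 67 and 1023 bp in KO 73, against 2569 bp in WT 66 and 3049 bp in WT 74. In each of the 5, KO 73 kept well under the length of either WT library. The 5 were picked for large WT length among regions missing from a KO library, which favours such a gap, so this is a description. Of the 26 isolated regions of at least 3000 bp, 5 were missing from KO 67 and 1 from KO 73. Over both-WT autosomal regions of any width, 19.4% were missing from KO 67 and 12.8% from KO 73. Of these 26, 15.4% were found in 1 KO library and 3.85% in neither (interval 0.0973 to 19.6). The other both-WT regions of that width gave 5.17% and 1.37%. The 15.4% rests on the 4 regions named above and has no interval here, so the gap is a description.

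**Figure D2:**
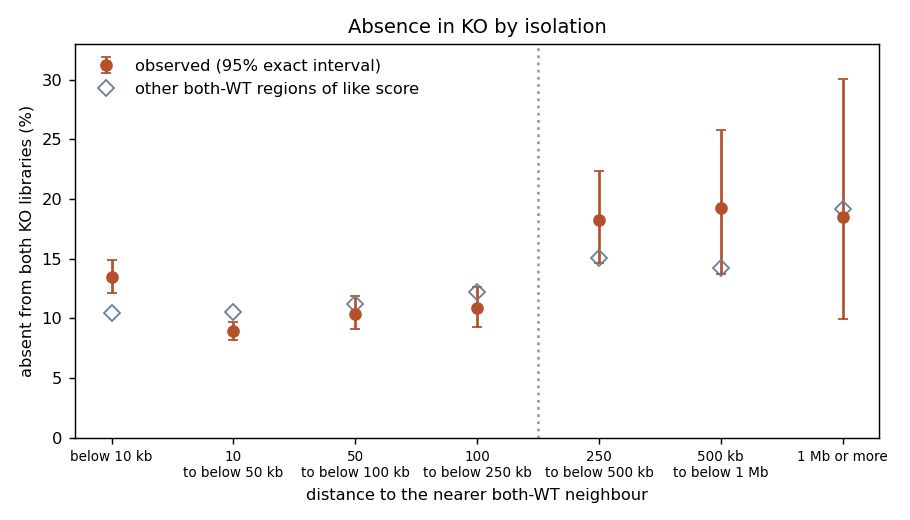
Share of both-WT regions absent from both KO libraries (vertical axis, %) by the distance to the nearer both-WT neighbour (horizontal axis). Filled points are observed shares with 95% exact intervals, open diamonds are the shares of the remaining both-WT regions of like score, and bins right of the dotted line hold the isolated regions. The 3 bins of isolated regions lie between 18.3% and 19.2%, and the bins from 10 to below 250 kb between 8.92% and 10.9%.

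Among isolated regions, absence from both KO libraries showed no rise with distance. It was 18.3% of 416 regions with 250 to below 500 kb to the nearer neighbour, 19.2% of 177 with 500 kb to below 1 Mb, and 18.5% of 65 with at least 1 Mb (interval 9.92 to 30.0). The shares at like score were 15.1%, 14.2% and 19.2%, so the most isolated bin did not exceed its own. For distance bins, like score draws on all both-WT regions outside the bin, isolated ones included. Its regions were the weakest, with a median WT score rank of 36.3, against 46.5 and 50.1 in the nearer bins. Among the other both-WT regions, those with a neighbour within 10 kb were absent in 13.4% of cases, against 10.4% at like score, and the bins from 10 to below 250 kb lay below their like-score values. With the isolation distance set to 100 kb, 2082 regions qualified and 13.3% were absent, 0.287 points above like score.

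The regions farthest from any other both-WT region had mixed fates. Of the 12 with at least 2 Mb on each side, 6 were found in both KO libraries, 2 in 1 KO library and 4 in neither. The share absent from both KO libraries was 18.5% over all isolated regions and 10.9% over all both-WT autosomal regions. With only 12 regions, no difference from these shares is read. The most isolated, chr1:113760670-113761834, had its both-WT neighbours 5067 kb to its left and 6445 kb to its right. It also had a region that was not both-WT only 122464 bp to its right. It measured 1055 bp in KO 67 and 1089 bp in KO 73, against 925 bp in WT 66 and 1156 bp in WT 74, so the genotypes overlapped (log2 change 0.05 ± 0.20 SE, limma adjusted p = 0.918). The next, chr6:76850740-76853805, had no KO coverage, against 3066 bp in WT 66 and 1403 bp in WT 74. On chromosome 5, chr5:60375583-60377361 covered 0 bp in KO 67 and the narrowest listed width in KO 73, against 1743 bp in WT 66 and 758 bp in WT 74. The region chr12:47919179-47921477 measured 2140 bp in KO 67 and 2067 bp in KO 73, against 2242 bp in WT 66 and 1929 bp in WT 74, again with overlap (log2 change 0.02 ± 0.13 SE, limma adjusted p = 0.962). The last of the 5, chr4:28740316-28742984, covered the narrowest listed width in KO 67 and 2142 bp in KO 73, against 963 bp in WT 66 and 2500 bp in WT 74. There the libraries of one genotype differed by more than the genotypes did (log2 change -0.58 ± 0.78 SE, limma adjusted p = 0.723).

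**Figure D3:**
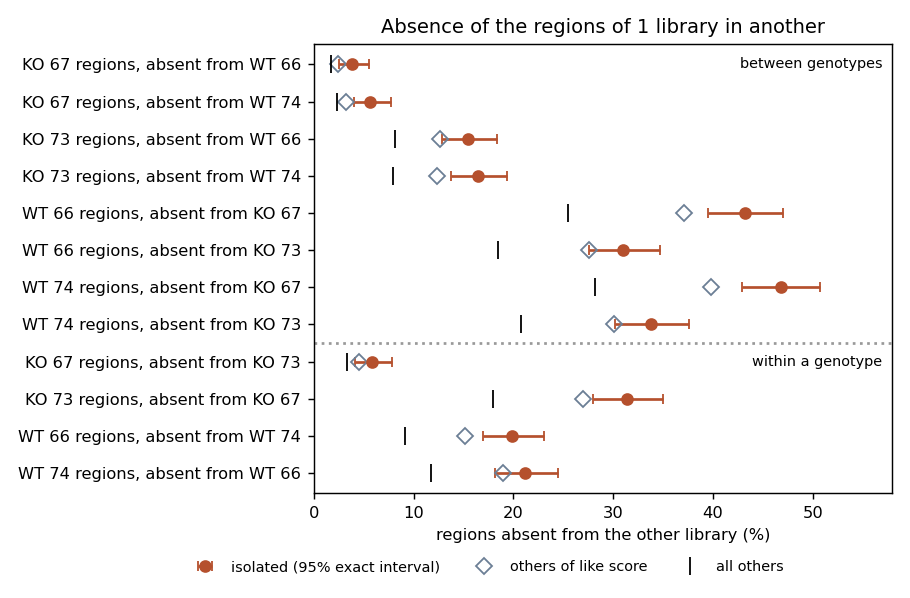
Share of the regions of 1 library that were absent from another (horizontal axis, %), with isolation judged in the first library alone. Filled points are isolated regions with 95% exact intervals, diamonds the other regions of like score in that library, and ticks all other regions. Isolated regions lie right of the other regions of like score in all 12 ordered pairs, within a genotype as well as between genotypes.

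Libraries of the same genotype likewise lacked each other's isolated regions more often than each other's remaining regions. With isolation judged in 1 library alone, 680 regions of WT 66 were isolated and 19.9% of them were absent from WT 74 (interval 16.9 to 23.1), against 9.10% of the other regions and 15.1% at like score. The isolated regions of WT 74 were absent from WT 66 in 21.2% of 656 cases, against 18.96% at like score. In KO, 5.80% of 655 isolated regions of KO 67 were absent from KO 73, against 4.57% at like score, and 31.4% of 700 isolated regions of KO 73 were absent from KO 67, against 27.0%. Between genotypes, isolated WT 66 regions were absent from KO 67 in 43.2% of cases and from KO 73 in 31.0%, against 37.2% and 27.6% at like score. Isolated WT 74 regions were absent from KO 67 in 46.8% and from KO 73 in 33.8%, against 39.8% and 30.1% at like score. As a ratio to regions of like score, absence of WT regions was 1.13 to 1.18 times as frequent between genotypes. Between the WT libraries it was 1.31 (WT 66 regions) and 1.12 times (WT 74 regions). Isolated KO 67 regions gave 1.60 (absent from WT 66) and 1.77 (absent from WT 74), against 1.27 (absent from KO 73). Isolated KO 73 regions gave 1.22 (absent from WT 66) and 1.33 (absent from WT 74), against 1.16 (absent from KO 67). The like-score value lay inside the isolated regions' own interval for WT 74 regions in WT 66 (18.1 to 24.5) and for KO 67 regions in KO 73 (4.14 to 7.88), so those excesses were within counting error. It lay below the interval for KO 73 regions in KO 67 (28.0 to 35.0), as it did for WT 66 regions in WT 74.

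The mirrored choice gave the same order at a lower level. Of 673 regions isolated among those found in both KO libraries, 10 had no counterpart in either WT library, 1.49% (0.715 to 2.72), against 0.458% of the other both-KO regions (0.327 to 0.623) and 0.539% at like score. The isolated both-KO list shared 422 regions with the isolated both-WT list, 62.7% of the both-KO list and 64.1% of the both-WT list.

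An absent isolated region more often had an absent nearest neighbour than a present one did, with intervals that just overlapped. The nearest both-WT neighbour was itself absent from both KO libraries for 29 of the 122 absent isolated regions, 23.8% (16.5 to 32.3), against 73 of the 536 isolated regions that were not absent, 13.6% (10.8 to 16.8). Among the other both-WT regions the shares were 16.1% (13.98 to 18.3) and 10.1% (9.55 to 10.8). Regions that are each other's nearest neighbour both count, and the neighbours' WT scores were not matched. Isolated regions that were alone in all 4 lists were absent in 18.2% of cases (14.6 to 22.2), and those with a neighbour outside the both-WT set in 19.2% (14.4 to 24.7).

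**Figure D4:**
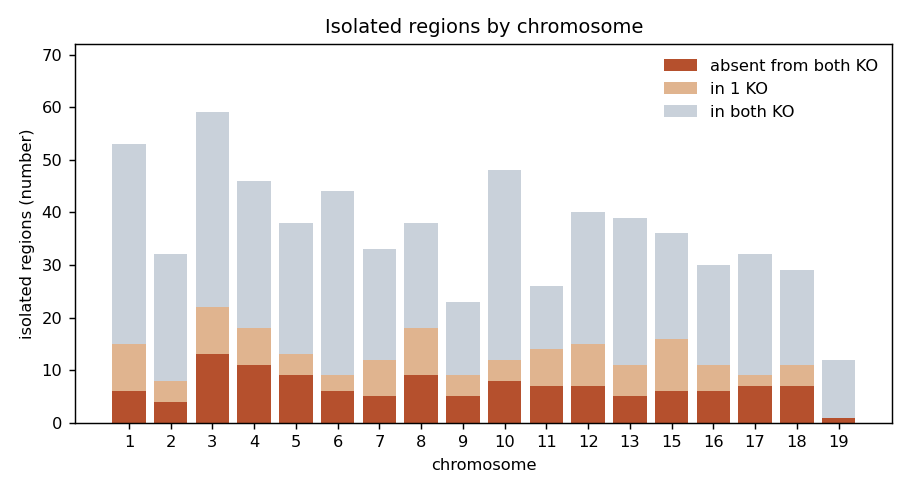
Number of isolated regions (vertical axis) on each chromosome searched (horizontal axis), stacked by whether a region was absent from both KO libraries, found in 1 or found in both. Every chromosome shown holds isolated regions, from 12 on chromosome 19 to 59 on chromosome 3, and every one has at least 1 that was absent from both KO libraries.

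Isolated regions made up 10.0% of the both-WT regions of chromosome 3 (59 regions), 8.68% on chromosome 12 and 8.36% on chromosome 18, and as little as 2.68% on chromosome 11 and 2.96% on chromosome 19. The share absent from both KO libraries ran from 1 of 12 on chromosome 19 (8.33%, interval 0.211 to 38.5) to 7 of 26 on chromosome 11 (26.9%, 11.6 to 47.8). Chromosome 3 had the largest number, 13 of 59 (22.0%, 12.3 to 34.7), and on chromosome 1 it was 6 of 53 (11.3%, 4.27 to 23.0). These intervals overlap across chromosomes, so no chromosome could be set apart at these numbers.

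Where an isolated region was kept in all 4 lists, it was usually narrower in KO on lengths as deposited. The extent was about that seen over all shared regions. The 434 isolated regions found in both KO libraries had median lengths of 1287.5 bp (KO 67) and 1296 bp (KO 73), against 1554.5 bp in WT 66 and 1428.5 bp in WT 74. Their median log2 change was -0.17, against -0.18 over all 9742 regions shared by the 4 libraries, sex chromosomes included. With library medians subtracted or quantile normalization, both medians were slightly positive, at 0.06 and 0.07 for isolated and at 0.05 and 0.07 for all shared regions. Both adjustments remove any shift common to all shared regions, so a small median change was fixed in advance. They cannot decide the direction of the typical change, which rests on lengths taken as deposited. Whether the common fall goes with genotype or with single libraries was not tested. The longer KO value was shorter than the shorter WT value in 183 of the 434 (42.2%), against 47.4% of all shared regions, and the reverse separation was seen in 27 (6.22%), against 4.74%. Regions that vanished in KO are not among the 434. At 27 of the 434, a KO library was at the narrowest width in any list. The same was so at 431 of the 8731 other kept regions and at 523 of the 9742 shared regions.

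Isolated and other kept regions of like WT width had similar changes. Among isolated regions of at least 2000 bp in both WT libraries the median log2 change was -0.38 (83 regions), and it was -0.33 in the others (2229 regions). Below 2000 bp it was -0.13 in 351 isolated regions and -0.14 in 6502 others. Within that class, regions below 1000 bp had medians of 0.02 (isolated) and -0.03 (others). In the lowest WT score quintile the medians were 0.13 (isolated) and 0.001 (others), and they were negative in both sets in every higher quintile. WT length both defines these width classes and enters the change, so the gap between the classes is not read as a result. Both edges of the covered stretch had moved inward in KO in 235 of the 434 isolated regions (54.1%), against 58.8% of the other kept regions. The median inward shift was 81 bp at the left edge and 68 bp at the right edge of isolated regions, against 87.5 and 86.5 bp in the others. Replicates differed slightly more in isolated regions, by a median absolute log2 ratio of 0.21 between the KO libraries and 0.21 between the WT libraries, against 0.18 and 0.17 in the others. The edge shifts and these replicate differences were not matched on WT length or score. Kept isolated regions were shorter, with a median of 1554.5 bp in WT 66, against 1658 bp in the others.

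By limma on log2 covered length, with Benjamini-Hochberg adjustment over all 9742 shared regions, 11 isolated regions were narrower in KO at an adjusted p of 0.05 and 0 were wider. They were 2.53% of the 434, against 3.6% of all shared regions called narrower and 0.0103% called wider. At an unadjusted p under 0.05 there were 77 of the 434 (17.7%), against 19.5% of all shared regions. Without KO 67, KO 73, WT 66 or WT 74 in turn, 0 isolated regions and 0 of all shared regions passed limma's threshold. An unadjusted p under 0.05 was then seen in 9.73% to 17.5% of the isolated regions, against 11.1% to 17.8% of all shared regions.

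The isolated regions called narrower varied with the processing, and so did the calls over all shared regions. Without a variance trend 1 isolated region was called (0.23%), against 97 of all shared regions (0.996%). With library medians subtracted 2 were called (0.461%), against 79 (0.811%). With quantile normalization 0 were called, with 54 at an unadjusted p under 0.05 (12.4%), against 54 called (0.554%) and 13.1% at that unadjusted p over all shared regions. Where a library had to cover at least 50% of a region, 6 were called (1.53%), against 101 of all (1.22%). A stricter score threshold gave 17 (3.68%), against 349 (4.62%), and lists of equal length gave 20 (3.55%), against 399 (4.74%).

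**Figure D5:**
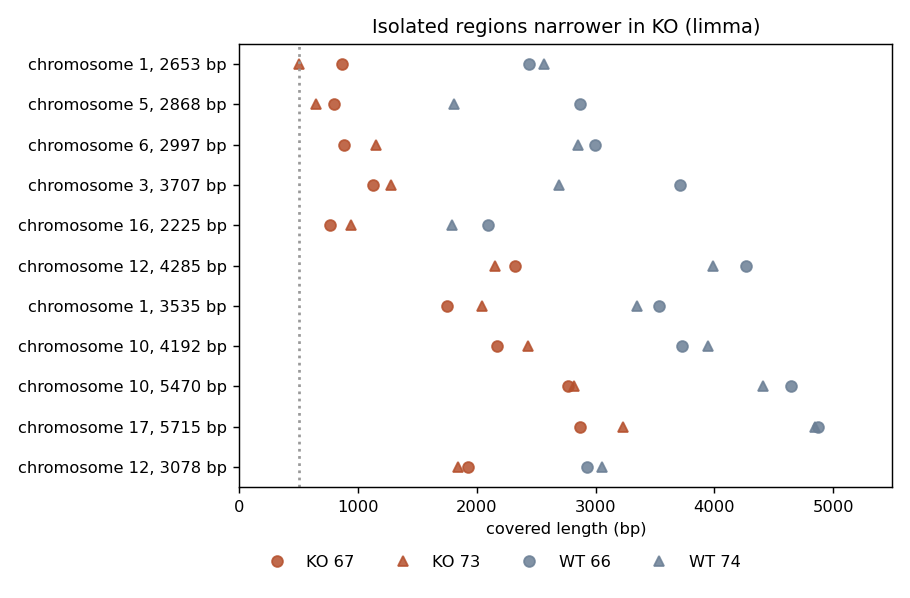
Covered length in bp (horizontal axis) of the 11 isolated regions that were narrower in KO by limma, 1 row for each, named by chromosome and merged length and ordered from the largest fall at the top. Circles and triangles are single libraries, and the dotted line is the narrowest width in any list. In every row both KO points lie left of both WT points.

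The plot of these 11 regions shows KO and WT libraries apart in each. The 11 were picked by limma on these same lengths, which favours such a gap, so it is a description. The region with the largest fall, chr1:127071229-127073881, covered 862 bp in KO 67 and the narrowest listed width in KO 73, against 2440 bp in WT 66 and 2563 bp in WT 74 (log2 change -1.93 ± 0.28 SE, limma adjusted p = 0.0369). Its left neighbour was 3606 kb away. No width below that of KO 73 is listed, which limits the size of this fall.

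On chromosome 5, chr5:27825285-27828152 measured 794 bp in KO 67 and 647 bp in KO 73, against 2868 bp in WT 66 and 1808 bp in WT 74 (log2 change -1.67 ± 0.27 SE, limma adjusted p = 0.0414). The WT libraries differed here by more than 1000 bp, and both still exceeded both KO libraries. On chromosome 6, chr6:8727004-8730000 measured 885 bp in KO 67 and 1147 bp in KO 73, against 2997 bp in WT 66 and 2851 bp in WT 74 (log2 change -1.54 ± 0.16 SE, limma adjusted p = 0.0223), with 3127 kb to its right neighbour. The region chr3:34351388-34355094 measured 1128 bp in KO 67 and 1274 bp in KO 73, against 3707 bp in WT 66 and 2694 bp in WT 74 (log2 change -1.40 ± 0.18 SE, limma adjusted p = 0.0285). The fifth, chr16:87048056-87050280, measured 760 bp in KO 67 and 940 bp in KO 73, against 2093 bp in WT 66 and 1792 bp in WT 74 (log2 change -1.20 ± 0.19 SE, limma adjusted p = 0.0407).

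The other 6 kept from 1750 to 3230 bp in KO, against 2925 to 4877 bp in WT. Their log2 changes ran from -0.88 to -0.67 (limma adjusted p from 0.0259 to 0.0492), and from -0.52 to -0.19 with quantile normalization, where none of the 6 passed the test. The region chr12:75382987-75387271 measured 2320 bp in KO 67 and 2157 bp in KO 73, against 4269 bp in WT 66 and 3987 bp in WT 74. The region chr1:185856316-185859850 measured 1750 bp in KO 67 and 2040 bp in KO 73, against 3535 bp in WT 66 and 3350 bp in WT 74. On chromosome 10, chr10:99218751-99222942 measured 2167 bp in KO 67 and 2430 bp in KO 73, against 3728 bp in WT 66 and 3947 bp in WT 74. In all 3 the libraries of a genotype lay close together compared with the gap between genotypes, as the choice by limma favours. The remaining region, chr12:31595064-31598141, measured 1926 bp in KO 67 and 1841 bp in KO 73, against 2925 bp in WT 66 and 3053 bp in WT 74.

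The other 2 of these 6 were also among the 5 broadest isolated regions of the WT testis, all of which were kept in KO at a reduced length. The 5 were picked for large WT length, which favours shorter KO lengths, so the reduction is a description. The broadest, chr13:44824727-44831129, measured 3637 bp in KO 67 and 4266 bp in KO 73, against 6052 bp in WT 66 and 6176 bp in WT 74, but did not pass the test (log2 change -0.63 ± 0.14 SE, limma adjusted p = 0.0784). Its score lay at the 48.9th percentile of the KO 67 list and the 75.2nd of the KO 73 list. Each KO list split this region into 2 rows, of which the higher score counts, whereas each WT list held it as 1 row. The region chr17:30140196-30145910 measured 2873 bp in KO 67 and 3230 bp in KO 73, against 4877 bp in WT 66 and 4851 bp in WT 74 (log2 change -0.68 ± 0.12 SE, limma adjusted p = 0.0492). The region chr10:96078472-96083941 measured 2765 bp in KO 67 and 2819 bp in KO 73, against 4647 bp in WT 66 and 4412 bp in WT 74 (log2 change -0.70 ± 0.11 SE, limma adjusted p = 0.0394). These 2 passed the test, and the remaining pair did not. Both values rest on how rows were joined. Without WT 66 the chromosome 10 region fell into 2 pieces, and the larger, with 2765 bp in KO 67 and 2819 bp in KO 73 against 2995 bp in WT 74, had a log2 change of -0.10 (limma adjusted p = 0.743). Without WT 74 the chromosome 17 region fell into 3 pieces, and the largest, with 2873 bp in KO 67 and 2729 bp in KO 73 against 3611 bp in WT 66, had a log2 change of -0.37 (limma adjusted p = 0.338). The region chr2:127950744-127955031 measured 2980 bp in KO 67 and 3213 bp in KO 73, against 4159 bp in WT 66 and 4210 bp in WT 74 (limma adjusted p = 0.107). The chromosome 5 region from 43623309 to 43627956 had a log2 change of -0.27 ± 0.13 SE (limma adjusted p = 0.327).

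The 5 isolated regions with the highest WT score rank included 3 of these broad ones and 2 others. The first by rank, chr17:39985202-39986297, was short, with 753 bp in KO 67 and 751 bp in KO 73, against 626 bp in WT 66 and 877 bp in WT 74. Its score lay at about the 99.7th percentile or higher of each of the 4 lists. Its genotypes overlapped in length (log2 change 0.02 ± 0.24 SE, limma adjusted p = 0.975). The second, chr16:46494640-46498923, measured 3150 bp in KO 67 and 3222 bp in KO 73, against 4126 bp in WT 66 and 4202 bp in WT 74 (log2 change -0.39 ± 0.11 SE, limma adjusted p = 0.127). It was shorter in both KO libraries than in either WT library and did not pass the test.

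With the lists as deposited, 0 isolated regions were wider in KO by limma. With a stricter score threshold or lists of equal length 1 was, chr19:26679026-26682627, which was not among the 658 isolated regions and is named because of that call. It measured 2938 bp in KO 67 and 3325 bp in KO 73, against 1544 bp in WT 66 and 1458 bp in WT 74 (log2 change 1.06, limma adjusted p = 0.012 and 0.0161). Of the 27 in which KO was longer throughout, the largest difference was at chr7:119822088-119823947, with 1505 bp in KO 67 and 1860 bp in KO 73, against 772 bp in WT 66 and 943 bp in WT 74 (log2 change 0.97 ± 0.20 SE, limma adjusted p = 0.0723). The next 4 had log2 changes from 0.42 to 0.48 and limma adjusted p from 0.261 to 0.323. They were chr12:12399000-12399947, chr10:13702446-13703394, chr18:58818585-58820011 and chr2:68699207-68700774, and their WT coverage ran from 627 to 1196 bp.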

How the data were processed

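H3K4me3 ChIP-seq libraries of KO and WT testes (2 each) were analysed from 1 region list per library, and the 4 input libraries were not analysed here. The submitters' processing notes name Bowtie, HOMER and mm9, whereas their versions, settings and any use of the inputs are not stated there. Because the deposited score of each region has no stated scale, it served only to rank regions within a list. Starts were converted to count from 1, rows that overlapped or touched were merged, and an overlap of at least 1 bp counted as coverage. Covered lengths were tested with limma 3.58.1 (R 4.3.3, eBayes with a variance trend) on log2 values without a pseudocount. On simulated lengths of 9742 regions limma recovered 63 of 100 regions given a log2 change of -1 and 99 of 100 given -2, with 14 false calls among 9542. The simulated lengths took their spread from limma's own estimates. They had no narrowest width, no lost regions and no shift common to a genotype. These counts therefore do not give the recovery on the real lists. Shares have exact (Clopper-Pearson) intervals that cover counting error only.

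The isolated regions and the rules for naming regions were chosen with earlier results of these data known. Named regions were the 5 with the largest smaller WT covered length among those absent from both KO, among those found in 1 KO and among all, the 5 most narrowed and most widened, the 5 most isolated, the 5 highest by WT score rank, and 3 on each side of the 250 kb threshold. For the widened regions, where fewer than 5 passed limma, the 2 genotypes had to be fully separated instead. Splits by score quintile, width, distance, chromosome and neighbour, and the naming of the 6 further regions past limma's threshold, were added after the data had been seen. Gene positions were not used, because the gene table at hand is of another build. The alternatives covered the isolation distance, the lists, merging, coverage, score matching, the fit and each library left out.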

Additional observations from a re-analysis of the deposited data

How the results depend on the processing

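No paired analysis was possible because the labels give the KO and WT libraries no shared number. Isolated regions numbered 2082 at 100 kb, 242 at 500 kb and 413 when isolation was counted against every merged region, and 655 to 680 with 1 library left out. Their share absent from both KO libraries was 13.3% at 100 kb, 8.89% with lists of equal length and 23.8% where a library had to cover at least 50% of a region. It was 20.5% to 32.1% with 1 library left out, and the mirrored share (isolated both-KO regions absent from both WT) was 1.49%. The excess over regions of like score stayed positive under all alternatives run, at 0.287 points at 100 kb, 2.09 with lists of equal length, 2.92 to 6.21 with 1 library left out and 4.88 when matched on WT length. The median log2 change was 0.0641 with library medians subtracted and 0.0709 with quantile normalization, which both remove a shift common to all shared regions. With 1 library left out it ran from -0.22 to -0.13. The number of isolated regions called narrower by limma was 38 at 100 kb (2.49%) and 1 at 500 kb (0.662%), against the same 3.6% of all shared regions. It was 17 with a stricter score threshold, 20 with lists of equal length and 6 with coverage of at least 50%. It was also 1 without a variance trend, 2 with library medians subtracted, and 0 with quantile normalization (54 at an unadjusted p under 0.05) or with any 1 library left out, and calls over all shared regions shifted too, to between 0 and 399. Lists of equal length and the coverage rule change which regions are tested, and leaving out a library leaves a genotype with 1 sample, assumed to vary like the other genotype. The cause of the other shifts was not tested. Over the 11 regions called narrower, under the alternatives that refit the lengths, 45 of 119 values kept direction and side of the threshold, 74 kept direction only and 0 reversed. The 11 were picked for their falls on these same lengths, which favours an unchanged direction, so the lack of reversals is a description. Absolute depth is unknown, and regions near the smallest score of a list can be missed by counting error alone.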
